A study of Mus musculus with 24 samples.

Results

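The genes described here are 9 CC chemokines that attract monocytes and related leukocytes, namely Ccl2, Ccl3, Ccl4, Ccl5, Ccl6, Ccl7, Ccl8, Ccl9 and Ccl12, together with Ccr2, the receptor of the monocyte chemoattractant proteins. They were taken by gene symbol from 2 count tables that each hold 54658 symbols. All 10 were found in both tables, and all 10 passed the filter on low counts in each of the 3 sample types. Their mRNA levels were compared between mice given β-nicotinamide mononucleotide (β-NMN), a precursor of the coenzyme NAD+, and mice given saline as vehicle.

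The 24 libraries came from male C57BL/6 mice aged 7 to 12 weeks. In the first experiment, every mouse received 1 mL of 4% thioglycollate (TGC) into the peritoneum, an irritant that draws leukocytes into the cavity, and either saline or β-NMN at 185 mg/kg/day, with 6 mice per group. The lavaged cells were all stimulated ex vivo for 6 h with E. coli, at a labelled ratio of 15 bacteria per cell. In the second experiment, heart and lung were taken from the same mice after cecal ligation and puncture (CLP), a surgical model of polymicrobial sepsis, with 3 saline and 3 β-NMN (185 mg/kg/day) mice. Every peritoneal sample was therefore elicited and bacteria-stimulated and every organ came from an operated mouse; no unstimulated cells, sham-operated mice or untreated mice were analysed here. Per the study's methods, the peritoneal mice received daily doses over 3 days and the CLP mice 1 dose after surgery, and the last dose came 24 h before sacrifice in both. The peritoneal samples are mixed lavage cells and the organs are whole tissue, so that no sorted cell type stands behind any value.

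CC chemokines are small secreted proteins named after a pair of adjacent cysteines near their amino terminus, and they act through G protein-coupled receptors on leukocytes. CCR2 and its ligands of the monocyte chemoattractant family, encoded by Ccl2, Ccl7 and Ccl12, release inflammatory monocytes from bone marrow and draw them into tissue. Ccl3, Ccl4, Ccl5, Ccl6 and Ccl9 encode ligands of other CC receptors such as CCR1, and activated macrophages make most of these mRNAs within hours of contact with bacteria.

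In the GENCODE M21 annotation of GRCm38, the 9 ligand genes lie on chromosome 11 in 2 groups and Ccr2 lies on chromosome 9. The first group holds Ccl2 (chr11:82035571-82037453), Ccl7 (chr11:82045712-82047525), Ccl12 (chr11:82101845-82103400) and Ccl8 (chr11:82115185-82116799), all on the plus strand. The second holds Ccl5 (chr11:83525778-83530518), Ccl9 (chr11:83572919-83578636), Ccl6 (chr11:83587882-83593087) and Ccl3 (chr11:83647844-83649355) on the minus strand and Ccl4 (chr11:83662584-83664683) on the plus strand. Ccr2 spans chr9:124101950-124113557 on the plus strand. All 10 are protein-coding genes, with exonic lengths from 511 bases (Ccl8) to 6760 bases (Ccr2).

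The family name can be read from the coding sequence. Each ligand has exactly 1 pair of adjacent cysteine codons, given here in capitals within 42 bases of the coding strand of GRCm38 (5′ to 3′), because this is the stretch that makes these 9 genes a family while the bases around it tell them apart. The stretch lies in coding exon 2 of 3 in 7 genes and in exon 3 of 4 in Ccl6 and Ccl9, which carry an additional coding exon before it.
Ccl2 (chr11:82036494-82036535, plus strand): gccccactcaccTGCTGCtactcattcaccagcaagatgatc
Ccl7 (chr11:82046526-82046567, plus strand): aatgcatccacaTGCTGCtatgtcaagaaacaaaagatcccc
Ccl12 (chr11:82102622-82102663, plus strand): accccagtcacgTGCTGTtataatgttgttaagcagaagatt
Ccl8 (chr11:82116044-82116085, plus strand): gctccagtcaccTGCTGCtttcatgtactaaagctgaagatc
Ccl3 (chr11:83648628-83648669, minus strand): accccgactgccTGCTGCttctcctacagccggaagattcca
Ccl4 (chr11:83663470-83663511, plus strand): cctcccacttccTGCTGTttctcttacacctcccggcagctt
Ccl5 (chr11:83529218-83529259, minus strand): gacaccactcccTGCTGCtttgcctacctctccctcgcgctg
Ccl6 (chr11:83589362-83589403, minus strand): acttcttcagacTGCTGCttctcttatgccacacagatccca
Ccl9 (chr11:83575902-83575943, minus strand): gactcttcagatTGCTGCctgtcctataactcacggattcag
Over the whole coding sequences, identical bases were counted as a percent of the longer sequence of each pair. They made up 68.1% for Ccl3 and Ccl4, 65.8% for Ccl6 and Ccl9, and 65.1% for Ccl12 and Ccl8. The lowest value, 38.7%, was that of Ccl2 and Ccl5. Their coding sequences differ in length (444 and 273 bases), which by itself lowers this measure, so it does not rank the pairs by divergence alone. The longest run of identical bases between any 2 of the coding sequences was 23 bases (Ccl6 and Ccl9), shorter than a sequencing read. The antisense genes Gm17268 at Ccl2 and E230016K23Rik at Ccl6 overlap these loci but share 0 exonic bases with them.

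Of the 10 genes, 6 had an entry in the RefSeq promoter table of GRCm38.p6: Ccl12, Ccl8, Ccl3, Ccl6, Ccl9 and Ccr2. The 250 bases before the start of 3 genes of the second group are shown because these neighbours went separate ways in the peritoneal cells. The motifs were searched for on both strands, and capitals mark the matches. TATAAA, the TATA box, occurs in 12.4% of 32851 promoter windows of the same length, and TGANTCA, the letters bound by AP-1, in 6.75%. An NF-κB motif made of GGGA, any 2 bases and TTCC occurs in 1.21%. The ETS family letters GAGGAA occur in 23.3%, and the C/EBP letters TTGCNNAA in 9.56%.
Ccl9 (chr11:83578637-83578886, minus strand): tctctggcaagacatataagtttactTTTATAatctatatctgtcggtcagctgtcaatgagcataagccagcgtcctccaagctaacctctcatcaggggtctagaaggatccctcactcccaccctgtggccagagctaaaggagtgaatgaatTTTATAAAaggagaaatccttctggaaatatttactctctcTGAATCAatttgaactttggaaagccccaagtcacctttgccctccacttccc
Ccl6 (chr11:83593088-83593337, minus strand): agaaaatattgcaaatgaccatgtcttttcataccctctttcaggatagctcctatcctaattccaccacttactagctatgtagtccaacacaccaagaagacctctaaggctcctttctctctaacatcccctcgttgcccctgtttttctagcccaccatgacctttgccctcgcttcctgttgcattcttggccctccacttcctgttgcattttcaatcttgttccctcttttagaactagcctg
Ccl3 (chr11:83649379-83649628, minus strand): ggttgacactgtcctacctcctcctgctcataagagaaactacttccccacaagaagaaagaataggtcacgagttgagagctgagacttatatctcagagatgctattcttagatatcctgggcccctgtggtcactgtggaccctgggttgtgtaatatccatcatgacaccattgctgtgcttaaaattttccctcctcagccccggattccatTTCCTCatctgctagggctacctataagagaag
Counted back from the start site, the Ccl9 window held TATAAA at −92, the same letters on the opposite strand at −94 (overlapping the former) and −224, and TGANTCA at −53. In the Ccl3 window there was 1 match, GAGGAA on the opposite strand at −33. None of the 5 motifs was found in the windows of Ccl6 and Ccr2, which says only that these letters are not there. The Ccr2 window (chr9:124101933-124102182) precedes the RefSeq start but lies mostly inside the GENCODE span of Ccr2 given above. TATAAA stood at −31 in Ccl12 and at −32 in Ccl8, with GAGGAA at −130 in Ccl12 and on the opposite strand at −240 in Ccl8.

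Total counts were 31126823 to 112456050 in the peritoneal libraries, 27319513 to 68523239 in heart and 8915366 to 28356786 in lung. The peritoneal libraries fell into 2 depth classes, with 5 deep ones of 90571560 counts or more (3 vehicle, 2 β-NMN) and 7 shallower ones of 53319385 counts or fewer (3 vehicle, 4 β-NMN). Both organs of vehicle mouse 2 stood apart from the rest, and the lung library of this mouse was the shallowest. The measure was the SD of a library's log2 difference from the mean of the organ's other libraries, of both treatment groups. For this mouse it was 0.99 in heart (0.39 to 0.58 in the others) and 1.57 in lung (0.45 to 0.60). Levels are given in CPM, a gene's counts scaled to the size of its library, with TMM scaling within each sample type, and fold changes are β-NMN over vehicle on the log2 scale.

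In the peritoneal cells, β-NMN was accompanied by lower mRNA of 4 ligands and of Ccr2 and by higher mRNA of 1 ligand, Ccl9. Ccl2, Ccl7, Ccl3, Ccl4 and Ccr2 fell, Ccl9 nearly doubled, and Ccl12, Ccl8, Ccl5 and Ccl6 did not pass the test. At an edgeR adjusted p below 0.05, 5 of 10 genes were lower, where 27.9% of the 14985 genes tested were lower, and 1 of 10 was higher, where 23.7% of all genes were higher. The median log2 fold change of the 10 genes was −0.32 against −0.02 over all genes tested. In these mixed cells, fewer cells of a type and less RNA per cell cannot be told apart.

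Among the monocyte chemoattractant ligands, Ccl2, the principal CCR2 ligand, had a lowest, median and highest level of 319.6, 542 and 622 CPM in the 6 vehicle libraries and of 271, 303 and 436 CPM in the 6 β-NMN libraries. All β-NMN libraries lay below the vehicle median, but the groups overlapped because vehicle replicates 3 and 4 were low. The means were 503 ± 109 and 322 ± 64.2 CPM (SD, n = 6 each), a log2 fold change of −0.64 (SE 0.16) with an edgeR adjusted p of 0.00349 and an exact two-sided permutation p of 0.0152. Of the called genes, Ccl2 was the one whose call depended on depth class: its log2 fold change was −0.58 among the deep libraries alone (edgeR adjusted p = 0.125) and −0.66 among the shallower ones (adjusted p = 0.0275).

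Ccl7, a second CCR2 ligand that lies next to Ccl2, ranged from 216 over a median of 475 to 586 CPM with vehicle and from 159 over 185 to 269.6 CPM with β-NMN. Here only the lowest vehicle library, replicate 4, reached into the β-NMN range. Ccl7 fell by more on the log2 scale than Ccl2 in point estimate, with −1.06 (SE 0.21), an edgeR adjusted p of 0.000737 and an exact permutation p of 0.00649; the difference between the 2 genes was not tested.

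The remaining pair of this gene group showed no detectable change. Ccl12, another CCR2 ligand of the mouse, had a lowest, median and highest level of 2.52, 10.0 and 14.2 CPM with vehicle and of 8.53, 10.5 and 13.6 CPM with β-NMN. Its log2 fold change of 0.25 (SE 0.31) had a 95% confidence interval of −0.41 to 0.92, which still allows a change close to that of Ccl9 upward. Ccl8, whose mouse protein acts mainly through CCR8, spanned 2.92 to 18.4 CPM (median 8.2) with vehicle and 6.37 to 11.6 CPM (median 8.92) with β-NMN, and its difference of −0.01 (SE 0.33) had an interval of −0.70 to 0.69. Both genes were low and spread widely in the vehicle group, where replicate 4 had the lowest value of each.

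Of the macrophage inflammatory protein ligands, Ccl3 fell without overlap between the groups. It ranged from 3494 over 3938 to 5454 CPM in vehicle cells and from 2031 over 2139 to 2804 CPM in β-NMN cells. Every β-NMN library was below every vehicle library. Means of 4213 ± 808 and 2309.9 ± 334 CPM gave a log2 fold change of −0.87 (SE 0.14), an edgeR adjusted p of 9.79e-05 and an exact permutation p of 0.00216, the smallest that 6 against 6 libraries can give. Non-overlapping groups with β-NMN lower occurred for 2 of the 10 genes, Ccl3 and Ccr2, and for 14.0% of all genes tested.

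Ccl4, encoded beside Ccl3 on the opposite strand, was at 889.5, 1193 and 1550.4 CPM (lowest, median, highest) with vehicle and at 667, 710.2 and 1077 CPM with β-NMN. The 2 highest β-NMN libraries, replicates 5 and 6, reached into the vehicle range, and the same 2 libraries were the highest of their group for Ccl2, Ccl7 and Ccl3. Its log2 fold change was −0.64 (SE 0.16), with an edgeR adjusted p of 0.00356 and an exact permutation p of 0.0108.

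Ccl5, which signals through CCR1 and CCR3 among others and is made by lymphocytes as well as macrophages, differed little between the groups. Its values ran from 1890.5 over 2242 to 2802 CPM with vehicle and from 2091 over 2309.7 to 2400.1 CPM with β-NMN. The β-NMN libraries lay inside the vehicle range. With a log2 fold change of −0.01 (SE 0.10) and a 95% confidence interval of −0.23 to 0.21, the interval did not reach the estimate for Ccl3.

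The 2 CCR1 ligands of the neighbouring genes Ccl6 and Ccl9 parted. Ccl6 stood at 303, 549 and 629.6 CPM (lowest, median, highest) with vehicle and at 372, 556 and 677 CPM with β-NMN, with overlapping groups and a log2 fold change of 0.10 (SE 0.17, 95% confidence interval −0.26 to 0.46). Ccl9 went from 691, 779 and 975 CPM to 1356, 1581 and 1810.2 CPM. All 6 β-NMN libraries exceeded the highest vehicle library. Mean levels of 791 ± 99.2 and 1560.3 ± 185 CPM amounted to a 1.97-fold rise (log2 0.98, SE 0.11, edgeR adjusted p = 3.81e-06, exact permutation p = 0.00216), and Ccl9 was the 1 gene of 10 whose groups did not overlap with β-NMN higher, against 12.6% of all genes.

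Ccr2, the receptor through which monocytes read Ccl2, Ccl7 and Ccl12, had the largest fold change of the 10 genes. Its lowest, median and highest levels were 6.7, 12.9 and 21 CPM with vehicle and 2.4, 3.73 and 4.69 CPM with β-NMN. The groups did not overlap, and vehicle replicate 3 came nearest to the β-NMN range. Mean Ccr2 fell 3.57-fold, from 13.4 ± 4.62 to 3.77 ± 0.835 CPM (log2 −1.83, SE 0.23, edgeR adjusted p = 1.21e-05, exact permutation p = 0.00216).

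**Figure D1:**
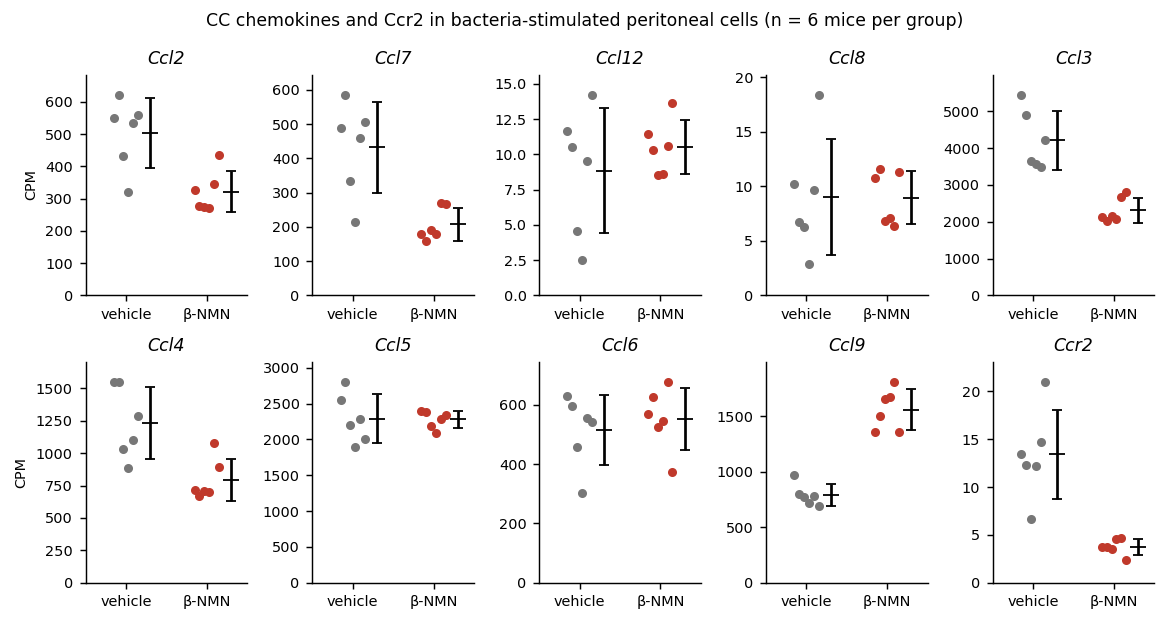
Level of each gene in the peritoneal cells, in TMM-scaled CPM on linear axes that start at 0, with 1 point per mouse (6 vehicle in grey, 6 β-NMN in red) and bars for the mean ± SD. Ccl3 and Ccr2 are lower and Ccl9 is higher with β-NMN with no overlap, Ccl2, Ccl7 and Ccl4 are lower with overlap, and Ccl12, Ccl8, Ccl5 and Ccl6 share their range.

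Within depth classes, the 6 called genes kept their direction. Among the deep libraries alone the log2 fold changes were −1.16 for Ccl7, −0.79 for Ccl3, −0.60 for Ccl4, 1.03 for Ccl9 and −2.04 for Ccr2. Among the shallower libraries alone they were −1.03, −0.92, −0.68, 0.96 and −1.48 in the same order. Each of these 5 genes passed the edgeR threshold in both classes.

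Markers of several leukocyte types moved with these results. The summed CPM of 7 monocyte markers was 2198 to 5934 CPM with vehicle and 1116 to 1233 CPM with β-NMN, with Cd14, the lipopolysaccharide co-receptor, going from 2693 ± 1387 to 355 ± 48.8 CPM, Ly6c2, the marker of inflammatory monocytes, from 12.2 ± 5.91 to 3.77 ± 1.26 CPM and Ms4a4c from 608 ± 150.2 to 410.2 ± 65.9 CPM as the 3 of 7 that fell. The 7 macrophage markers summed to 5438 to 8342 CPM with vehicle and 10525 to 12144 CPM with β-NMN, and 4 of these 7 rose (Cd68, Mertk, Mrc1 and Lyz2). Sums for natural killer cells (46.5 to 237 CPM with vehicle and 15.2 to 35.3 CPM with β-NMN, 5 of 5 markers lower), T cells (3.03 to 9.64 CPM with vehicle and 0.884 to 2.57 CPM with β-NMN, 4 of 4 lower), neutrophils (491 to 998 CPM with vehicle and 334 to 467 CPM with β-NMN, 5 of 7 lower and 1 higher) and dendritic cells (32.5 to 52.4 CPM with vehicle and 13.8 to 18.1 CPM with β-NMN, 3 of 4 lower and 1 higher) also differed without overlap, as did fibroblast markers (74.1 to 812 CPM with vehicle and 17.1 to 64.4 CPM with β-NMN, 4 of 4 lower). No marker list was at 0 throughout, and vehicle replicate 3, lowest of its group for Ccr2, had the highest monocyte and the lowest natural killer cell sum, while vehicle replicate 6, highest for Ccr2, had the reverse. The part of these cell types in the changes of Ccr2, Ccl9 and the other ligands was not tested.

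Levels of different genes were set side by side per kilobase of merged annotated exons. This length can exceed that of the mRNA made, as for Ccl2, with 2 merged exon blocks where its coding transcript has 3 exons. The orders and shares given per length depend on it. On this scale, Ccl3 was the most abundant of the 10 mRNAs in vehicle cells at 5499.5 ± 1055 CPM per kb (SD, n = 6). Ccl5 at 2384 ± 352 and Ccl4 at 1869 ± 418 CPM per kb followed. Ccl7 (539 ± 167), Ccl2 (442 ± 95.8), Ccl6 (286 ± 66.1) and Ccl9 (259.8 ± 32.6) formed a middle tier, and Ccl8 (17.7 ± 10.4), Ccl12 (16.5 ± 8.26) and Ccr2 (1.98 ± 0.684 CPM per kb) were low. Some neighbouring pairs did not hold their order in every vehicle library: Ccl7 exceeded Ccl2 in 5 of 6, Ccl6 exceeded Ccl9 in 5 of 6 and Ccl8 exceeded Ccl12 in 4 of 6. In β-NMN cells the first 3 places were unchanged, but Ccl9 moved ahead of Ccl6, Ccl2 and Ccl7 with 512 ± 60.8 CPM per kb and was above Ccl6 (307 ± 57.9) in 6 of 6 libraries. Ccl6 was above Ccl2 (283 ± 56.4) in 5 of 6 and Ccl2 above Ccl7 (259 ± 60.6) in 5 of 6.

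Summed per length over the 9 ligands, the pool measured 11314 ± 2027 CPM per kb with vehicle and 7990.3 ± 792 CPM per kb with β-NMN (SD, n = 6 each). Its make-up shifted: Ccl3 made up 48.6% ± 2.76 of the pool with vehicle and 37.6% ± 2.04 with β-NMN. The shares of Ccl5 went from 21.2% ± 1.99 to 29.9% ± 2.81 and those of Ccl9 from 2.33% ± 0.296 to 6.46% ± 0.926, while Ccl4 held 16.4% ± 0.906 and 14.9% ± 1.55. Shares describe one gene relative to the others, so a share can rise for a gene whose level did not, as for Ccl5.

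**Figure D2:**
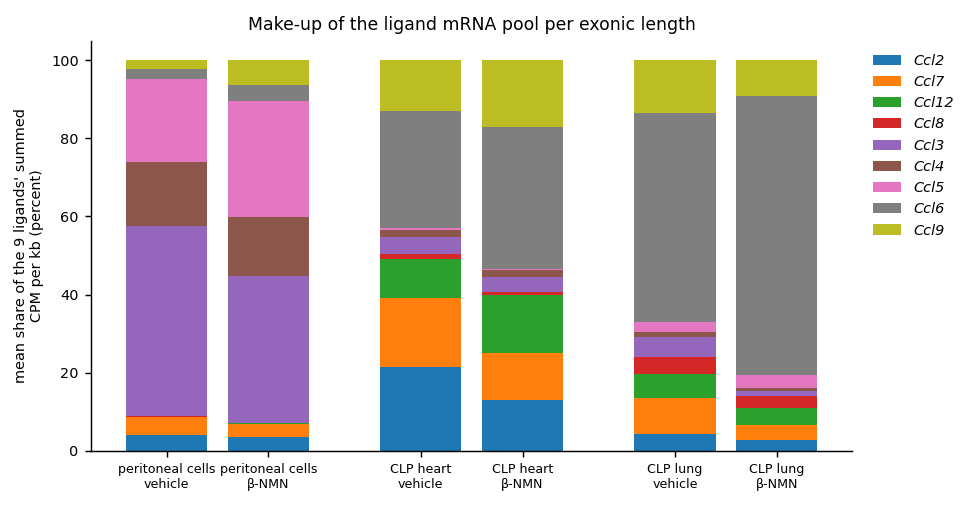
Mean share, in percent, of each of the 9 ligand mRNAs in their summed CPM per kb, as stacked bars for each sample type and group (6 mice per peritoneal group, 3 per organ group). Ccl3, Ccl5 and Ccl4 fill most of the peritoneal bars, whereas Ccl6 is the largest segment in both organs and Ccl2 is larger in heart than in lung.

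Some of the ligands also varied together from mouse to mouse. After removing each group's mean, log2 CPM of Ccl2 and Ccl7 had a Pearson r of 0.94 over the 12 peritoneal libraries (Spearman rho 0.87), which was 0.89 without the 2 libraries farthest from the median and 0.95 within group and depth class. Ccl3 and Ccl4 had an r of 0.91 (rho 0.82, 0.95 without 2 libraries, 0.88 within class), and Ccl12 tracked both Ccl2 (0.87) and Ccl8 (0.87, or 0.60 without 2 libraries). Ccl6 and Ccl9 were less closely tied (0.56, rho 0.55, 0.43 without 2 libraries). With the remaining ligands, the r of Ccl9 ran from −0.21 (Ccl8) to 0.46 (Ccl4). Values for Ccr2 depended on the libraries: r with Ccl2 was 0.05, 0.40 without 2 libraries and 0.22 within class, and with Ccl3 it was 0.02, 0.31 and 0.40. The highest r of Ccr2 was with Ccl6 (0.48, 0.49 without 2 libraries, 0.82 within class), and within class it reached 0.62 with Ccl9 and 0.59 with Ccl4. These are descriptions over 45 pairs of genes measured in the same 12 libraries, which share depth and scaling.

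**Figure D3:**
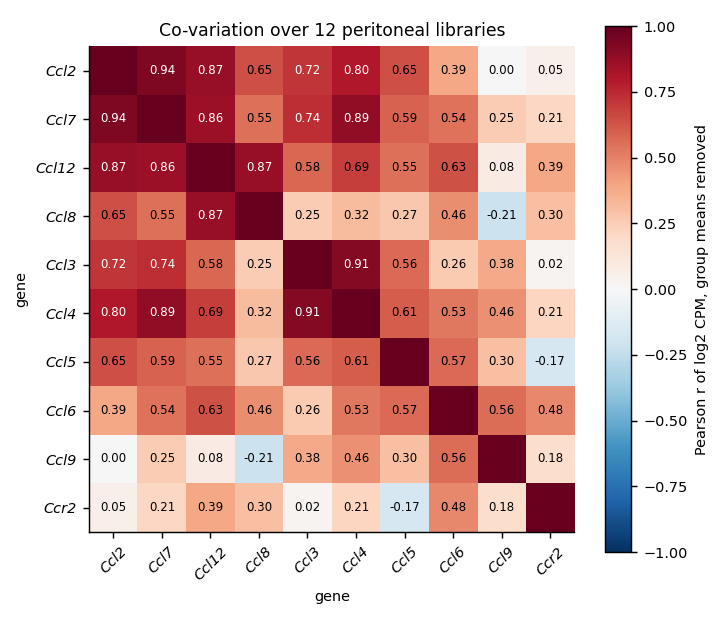
Pearson r of log2 CPM for each pair of genes over the 12 peritoneal libraries after subtracting each group's mean, coloured from blue (−1) to red (1). Ccl2, Ccl7 and Ccl12 form a block of high values, as do Ccl3 and Ccl4, whereas Ccr2 and Ccl9 are paler against most ligands.

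Among genes averaging 3 or more on the log2 CPM scale, those closest to Ccl2 over the 12 libraries were Lrch1 (r = 0.97), Enpp4, Olfr56, Ccl7 and Ppm1k (0.93), so that Ccl7 was among the nearest 5 of 6829 genes. Closest to Ccr2 were Tcf7 (0.95), Herc3, Dhx57, Runx2 and Gzmb (0.94). Of these 5, Tcf7, a T cell transcription factor, Gzmb, granzyme B of cytotoxic lymphocytes, and Runx2 were lower with β-NMN (log2 −2.23, −1.56 and −1.55, all past the edgeR threshold). Herc3 and Dhx57 had positive estimates that did not pass (log2 0.25 and 0.30, edgeR adjusted p = 0.289 and 0.14).

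Other chemoattractant receptors and decoys, not all of which bind these ligands, were also measured in peritoneal cells. Ccrl2, an atypical receptor that binds chemerin, fell from 1921 ± 319 to 1027 ± 180.2 CPM (log2 −0.90, SE 0.13, edgeR adjusted p = 6.3e-05), with no overlap. Ccr3, best known from eosinophils, rose from 11.3 ± 5.82 to 31.3 ± 13.4 CPM (log2 1.47, SE 0.36, adjusted p = 0.0033), with overlapping groups. Ccr1, the receptor of Ccl3, Ccl6 and Ccl9, was at 227 ± 41.4 and 212 ± 5.25 CPM and did not pass (log2 −0.10, SE 0.11, adjusted p = 0.455), nor did Cx3cr1 at under 1 CPM, while Ccr8, Ackr1 and Ackr2 were below the filter.

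Among 12 other CC and CX3C ligands, 6 could be tested, 2 fell and 1 rose (27.9% and 23.7% of all genes), with a median log2 fold change of −0.53. Ccl22, a CCR4 ligand of activated macrophages and dendritic cells, fell from 37.9 ± 11.5 to 20.4 ± 4.00 CPM (log2 −0.89, SE 0.19, edgeR adjusted p = 0.00101) with no overlap. The other two calls, Cx3cl1 downward and Ccl28 upward, were at or below about 1 CPM and were named after their values were seen. Of 6 other CC receptors, 4 were tested and 2 were lower, against 27.9% of all genes: Ccr7, which guides dendritic cells to lymph nodes, fell from 148 ± 11.4 to 27.8 ± 4.95 CPM (log2 −2.41, SE 0.11, adjusted p = 4.19e-09), and Ccr4, at under 1 CPM, was the other (named after its value was seen).

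Downstream of the receptors, 25 genes of the chemokine signal chain were all tested, of which 4 rose and 8 fell, against 23.7% and 27.9% of all genes, with a median of −0.10. Gng2, a G protein gamma subunit, rose from 13.7 ± 2.43 to 38.4 ± 3.56 CPM (log2 1.49, SE 0.11), and Plcb2 and Ptk2b rose by 0.75 and 0.56 on the log2 scale. Pik3cg, the phosphoinositide 3-kinase activated by these receptors, fell from 24.1 ± 5.17 to 8.67 ± 1.49 CPM (log2 −1.48, SE 0.15), and Rgs2, a regulator that ends G protein signals, from 31.6 ± 10.2 to 12.2 ± 2.14 CPM (log2 −1.37, SE 0.18). Rac2, the leukocyte GTPase of directed movement, fell by 0.89 on the log2 scale. The directions within this list were mixed.

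In the hearts of CLP mice, all 10 genes were lower in the β-NMN group in point estimate, but none passed the edgeR test. Across the 16245 genes tested, 0% were called lower and 0% higher, and 1837 had an unadjusted p below 0.05, among them 9 of the 10 genes here. These counts depended on single hearts. They were 888 and 6 without β-NMN mouse 1 and 2721 and 7 without vehicle mouse 3. The groups did not overlap, with β-NMN lower, for 8 of 10 genes, where 11.5% of all genes did so, and for 0 of 10 with β-NMN higher, where 11.6% of all genes did. The median log2 fold change of the 10 genes was −1.35 against −0.006 over all genes. With 3 against 3 mice, the exact permutation test cannot go below p = 0.1, which was the value for each of the 8 genes.

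Ccl2 was at 9.74, 26.3 and 20.3 CPM in hearts of vehicle mice 1, 2 and 3 and at 3.91, 4.4 and 5.37 CPM in those of β-NMN mice 1, 2 and 3. Vehicle mouse 1 had the lowest vehicle level, still above every β-NMN heart. The log2 fold change was −2.04 (SE 0.36) with a 95% confidence interval of −2.90 to −1.18 and an edgeR adjusted p of 0.435. Ccl7 measured 6.44, 13 and 12.8 CPM with vehicle and 2.61, 2.75 and 3.41 CPM with β-NMN, in the same order of groups, for a log2 fold change of −1.87 (SE 0.31). Ccl12 measured 3.86, 2.07 and 5.67 CPM against 2.5, 1.42 and 3.61 CPM, and here the vehicle mouse that was highest for Ccl2 was the lowest, so that the groups overlapped (log2 −0.62, SE 0.46, unadjusted p = 0.225 by edgeR). Ccl8 was scarce at 0.415, 0.752 and 0.349 CPM and 0.112, 0.203 and 0.109 CPM, which rests on 3 to 40 reads per library (log2 −1.81, SE 0.47).

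Ccl3 stood at 1.95, 3.05 and 2.65 CPM with vehicle and at 0.894, 0.813 and 1.02 CPM with β-NMN, without overlap (log2 −1.48, SE 0.27, edgeR adjusted p = 0.435). Its neighbour Ccl4, at 0.83, 0.339 and 1.31 CPM and 0.261, 0.277 and 0.45 CPM, overlapped because vehicle mouse 2 was low (log2 −1.28, SE 0.54). For Ccl5 the levels of 0.23, 0.489 and 0.291 CPM and 0.0372, 0.203 and 0.109 CPM correspond to 1 to 26 reads, and the highest β-NMN heart lay just under the lowest vehicle heart (log2 −1.41, SE 0.57). Low counts limit what can be read from Ccl5, Ccl8 and Ccl4 in this organ.

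Among the ligands in heart, Ccl6 and Ccl9 had the narrowest intervals. Ccl6 was at 40.9, 46.7 and 30.8 CPM with vehicle and 22.6, 18.9 and 18.2 CPM with β-NMN (log2 −0.99, SE 0.18, 95% confidence interval −1.42 to −0.56). Ccl9 was at 28.8, 31 and 26.6 CPM and 16.9, 15.7 and 15.3 CPM (log2 −0.85, SE 0.12, −1.13 to −0.58). In both, all 3 β-NMN hearts lay well below all vehicle hearts, and the Ccl9 difference had the direction opposite to that in peritoneal cells. Ccr2 measured 1.84, 3.72 and 1.57 CPM against 0.484, 1.27 and 1.12 CPM, without overlap (log2 −1.29, SE 0.48, −2.42 to −0.16).

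The number of heart calls depended on the tool. DESeq2, with its Wald test on the same libraries, called 283 genes (43 higher and 240 lower) and among them 5 of the 10 genes, all lower: Ccl2 (−2.03, DESeq2 adjusted p = 4.32e-05), Ccl7 (−1.87, 2.06e-05), Ccl3 (−1.47, 0.00137), Ccl6 (−0.98, 0.0016) and Ccl9 (−0.85, 1.67e-06). limma-voom called 3 genes, edgeR without the low-count filter 3, and the robust and newer quasi-likelihood forms 0, and none of these called any of the 10. Without vehicle mouse 2, all 10 genes were lower with no overlap (14.6% of all genes), the median was −1.18, and 0 of the 10 were called.

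Ccr1, the receptor of Ccl3, Ccl6 and Ccl9, was also lower in β-NMN hearts, at 5.58 ± 1.21 and 2.03 ± 0.693 CPM (SD, n = 3 each, log2 −1.46, SE 0.32, unadjusted p = 0.00288 and adjusted p = 0.435 by edgeR), with no overlap. In these hearts the summed neutrophil markers were 21 to 36.1 CPM with vehicle and 13.9 to 15.4 CPM with β-NMN, without overlap. Monocyte markers summed to 139.8 to 192 CPM with vehicle and 122 to 158 CPM with β-NMN and macrophage markers to 240.0 to 373 CPM with vehicle and 258 to 459.6 CPM with β-NMN, both with overlap. Cardiomyocyte markers, which define the organ, were at 29578 to 47991 CPM with vehicle and 50534 to 55331 CPM with β-NMN, the lowest value being that of vehicle mouse 2, whose heart also had 81.4 CPM of mesothelial markers where the other 5 hearts had at most 5.79 CPM. The part of these cells in the lower ligand levels was not tested.

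In the lungs of the same mice, no change in the 10 genes was detectable. Of 17008 genes tested by edgeR, 0% were called lower and 0% higher, with 301 at an unadjusted p below 0.05. DESeq2 called 9 (1 higher, 8 lower) and limma-voom 7, none of them among the 10. Of the 10 genes, 7 were lower and 3 higher in point estimate (median −0.56, against 0.0006 over all genes), with non-overlapping groups for 2 lower (3.75% of all genes) and 0 higher (4.47%). All 10 had an adjusted p of 0.969.

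The 2 genes whose groups did not overlap in lung were Ccl3 and Ccl7. Ccl3 was at 4.55, 11.6 and 2.9 CPM in lungs of vehicle mice 1, 2 and 3 and 1.89, 0.851 and 2.27 CPM in β-NMN mice 1, 2 and 3 (log2 −1.90, SE 0.65, unadjusted p = 0.022 by edgeR). Ccl7 was at 7.29, 18.6 and 9.11 CPM and 5.36, 3.09 and 6.53 CPM (log2 −1.21, SE 0.47, unadjusted p = 0.0367). For both, the highest value belonged to vehicle mouse 2, the library that stood apart. Without that mouse the log2 fold changes were −1.16 for Ccl3 and −0.71 for Ccl7, and of the 10 genes 8 were lower in point estimate, 3 of them without overlap (10.5% of all genes), and 0 were called.

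Ccl2 in lung measured 10.2, 5.49 and 9.24 CPM with vehicle and 4.57, 2.09 and 9.9 CPM with β-NMN, where β-NMN mouse 3 was as high as the vehicle mice (log2 −0.60, SE 0.58). Ccl12 was at 5.97, 5.78 and 4.97 CPM and 4.69, 1.66 and 6.02 CPM (log2 −0.43, SE 0.49) and Ccl8 at 5.19, 2.46 and 3.23 CPM and 2.68, 2.55 and 2.16 CPM (log2 −0.57, SE 0.40). In Ccl2 and Ccl12 alike, β-NMN mouse 2 had the lowest level and β-NMN mouse 3 reached the vehicle range. Ccl4 stood at 2.36, 1.16 and 0.828 CPM and 0.914, 0.58 and 0.587 CPM (log2 −1.09, SE 0.55).

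Ccl6, the most abundant of the 10 mRNAs per exonic length in lung, was at 173, 102 and 215 CPM with vehicle and 197, 174 and 253 CPM with β-NMN (log2 0.35, SE 0.33). Ccl9 was at 62.7, 82.1 and 58.7 CPM and 44.7, 32.1 and 62.7 CPM (log2 −0.54, SE 0.30). The lung estimates of these neighbours had opposite signs, and neither passed. Ccl5, at 5.53, 2.6 and 4.39 CPM and 5.67, 5.07 and 3.78 CPM (log2 0.20, SE 0.39), overlapped between the groups. Ccr2, at 19.9, 16.6 and 16.2 CPM and 17.1, 22.9 and 18 CPM, had a log2 fold change of 0.14 (SE 0.23). Its 95% confidence interval of −0.41 to 0.68 overlapped that of Ccr2 in heart (−2.42 to −0.16). Lung epithelial markers defined the organ (71679 to 95040.0 CPM with vehicle and 54757 to 99132 CPM with β-NMN), and macrophage markers summed to 1327 to 4330.1 CPM with vehicle and 5046 to 5497 CPM with β-NMN, the lowest being vehicle mouse 2, which also had the lowest Ccl6 level; the part of macrophages in these values was not tested.

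**Figure D4:**
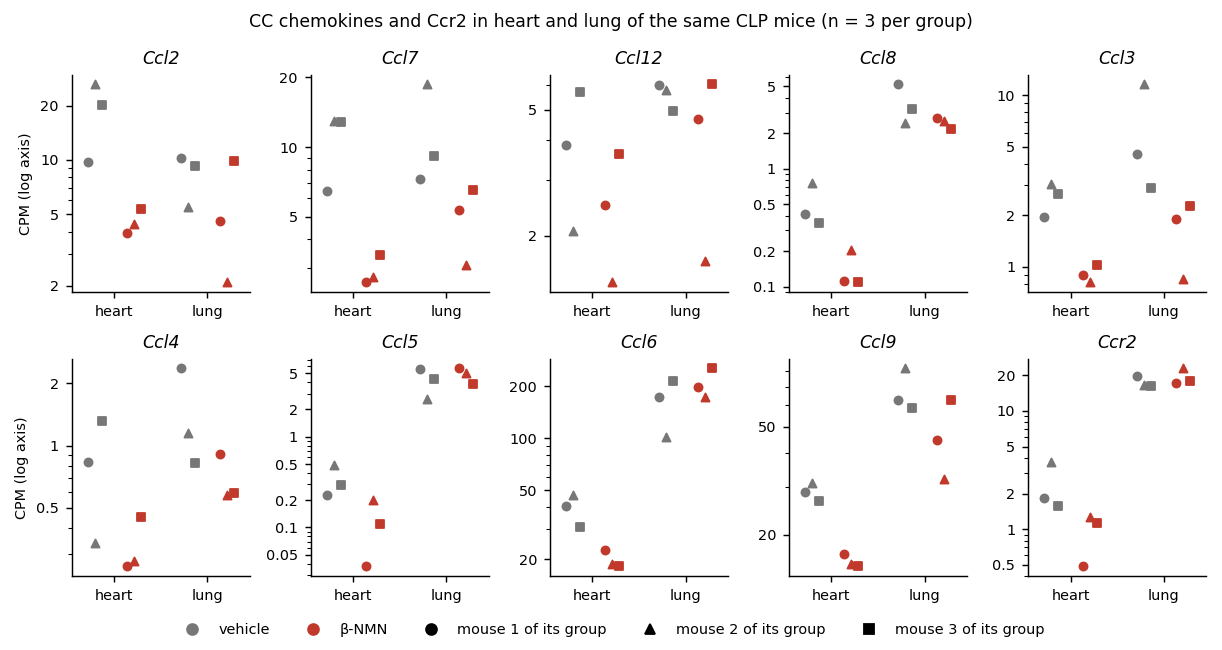
Level of each gene, in TMM-scaled CPM on a log axis, in heart and lung of 3 vehicle (grey) and 3 β-NMN (red) CLP mice, with the marker shape giving the mouse within its group. In heart the red points lie below the grey ones for 8 genes, with overlap for Ccl12 and Ccl4, and in lung they are separate only for Ccl7 and Ccl3.

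**Figure D5:**
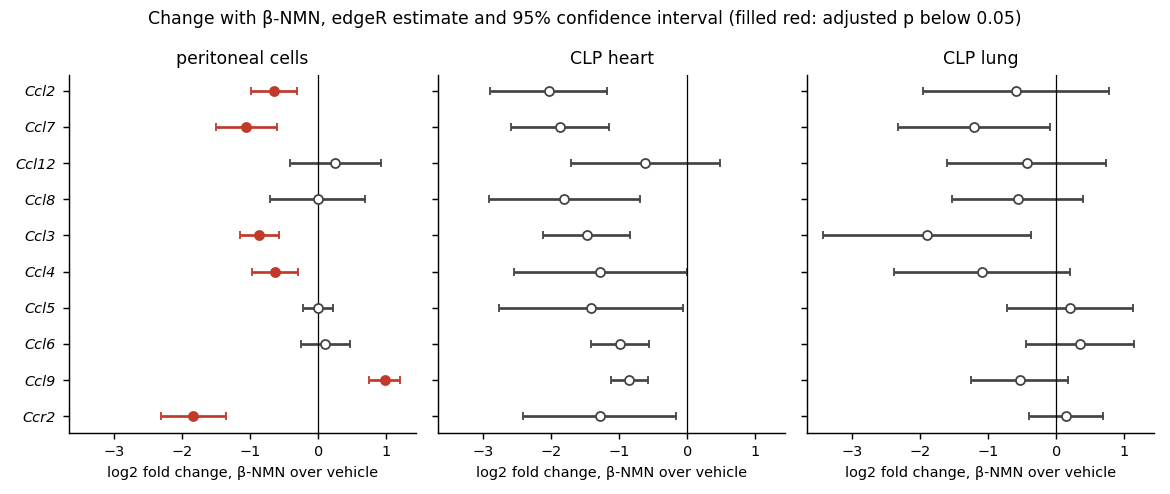
log2 fold change of β-NMN over vehicle for each gene in the 3 sample types, with the 95% confidence interval from edgeR and filled red points where the adjusted p was below 0.05. The 6 filled points are all in peritoneal cells, all 10 heart estimates are below 0, and most lung intervals span 0.

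Whether the β-NMN effect differed between the organs was tested as an interaction over the 12 CLP libraries. By edgeR, 0% of 18318 genes were called, with 797 at an unadjusted p below 0.05, while DESeq2 called 14. Of the 10 genes, Ccl6 differed most by p, its log2 fold change being higher in lung than in heart by 1.34 (SE 0.42, unadjusted p = 0.00785, adjusted p = 0.96). Ccr2 (1.42, unadjusted p = 0.0217) and Ccl5 (1.60, unadjusted p = 0.0469) followed. None of the 10 passed after adjustment, so a difference between the organs was not shown.

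Some of these genes differed in level between the organs, as did most genes tested (11873 of 18318 called by edgeR). For this comparison the 12 CLP libraries were scaled jointly, so the CPM values differ from those given within each organ. Over both treatment groups, 5 of 10 genes were called higher in lung (35.9% of 18318 genes) and 1 higher in heart (28.9%), on a scaling that shifted the median of all genes by 0.14. Ccl5 was 13.7-fold higher in lung (log2 3.77, SE 0.39), with heart levels of 0.047 to 0.609 CPM and lung levels of 1.91 to 4.49 CPM. Ccr2 was 7.55-fold higher (0.611 to 4.64 CPM in heart, 12.2 to 18.2 in lung), Ccl8 6.93-fold and Ccl6 4.14-fold. None of these 4 overlapped between organs, and each was higher in lung in 6 of 6 mice. Ccl9 was 1.64-fold higher in lung in 6 of 6 mice with overlapping ranges (edgeR adjusted p = 0.00252).

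Ccl2 was the exception, 2.15-fold higher in heart (log2 lung over heart −1.10, SE 0.36, edgeR adjusted p = 0.0192), in 5 of 6 mice on the joint scaling and in 3 of 6 by the levels scaled within each organ. This call was lost when β-NMN mouse 1 or β-NMN mouse 2 was left out, leaving 5 called genes. Ccl7, Ccl12, Ccl3 and Ccl4 did not pass, with log2 differences of −0.25, −0.05, 0.39 and 0.27. Per exonic length, Ccl6 had the highest mean in both organs, making up 30.0% ± 7.53 of the ligand pool in vehicle hearts, where it was above Ccl2 in 2 of 3, and 53.3% ± 13.5 in vehicle lungs. Ccl2 held 21.4% ± 6.61 of the pool in hearts given vehicle and 13% ± 1.79 in those given β-NMN. The pool measured 74.5 ± 12.7 and 30.7 ± 2.79 CPM per kb in hearts given vehicle and β-NMN and 167 ± 18.6 and 163 ± 36.7 CPM per kb in lungs (SD, n = 3 each). The organs and the peritoneal cells were tabled and scaled separately, so their levels were not compared by a test.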

How the data were processed

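Per the labels, poly(A) RNA of 12 peritoneal, 6 heart and 6 lung samples was sequenced, and the authors deposited raw read counts per gene symbol in 2 tables, 1 per experiment. The submitters' processing notes name STAR 2.7.3a, featureCounts 2.0.0 and mm10. The annotation and the strand setting of the counting are not given in the sources used here. Replicates were not pooled, and 0 columns belonged to other series. One β-NMN heart whose title repeats replicate 3 was taken as replicate 2 because the lung of the same mouse carries that number. The source labels of the organs name thioglycollate where titles, tissue and methods name CLP, which was followed.

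Each sample type was fitted alone on the counts with edgeR 4.0.16 (filterByExpr, TMM, quasi-likelihood F-test) in R 4.3.3, with Benjamini-Hochberg adjustment over all genes tested and calls at 0.05; organs were compared in 1 fit of the 12 CLP libraries. Exact two-sided permutation tests used log2 CPM with a prior count of 2, and intervals are at 95%. Alternatives used DESeq2 1.42.0, limma 3.58.1 (voom with quality weights), other scaling, no filter, other quasi-likelihood forms, a replicate block, omission of each replicate, and, chosen after seeing the data, depth class. The tests were checked on simulated counts. Per-length levels used merged GENCODE M21 exons. Named beside the 10 genes were the receptors of a fixed list, of which 1 is not reported here, up to 3 called genes of each direction in each other list averaging at least 1 on the log2 CPM scale in peritoneal cells, those of smallest p in the organs, and the 5 genes nearest to Ccl2 and Ccr2. The members and lists were chosen with earlier results of these data known.

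Heart and lung of 1 mouse are paired by the mouse names in the labels (correlation of their deviations from the group means 0.06 to 0.17). Totals of 8915366 to 112456050 counts per library set the precision. No 2 libraries of a group agreed within sampling noise. The labels give 1 mouse per library, and intervals cover the spread between these mice.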

Additional observations from a re-analysis of the deposited data

Results flagged for a closer look

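Ccl9 moved in opposite directions in 2 sample types of mice given β-NMN, with daily doses in the peritoneal experiment and 1 dose in the CLP experiment. In peritoneal cells its log2 fold change with β-NMN was 0.98, with every β-NMN library above every vehicle library. In the hearts of CLP mice it was −0.85, with every β-NMN heart below every vehicle heart. The 2 sample types come from separate experiments and tables, and the difference between them was not tested. The heart value was not called by edgeR (adjusted p = 0.435) and was called by DESeq2 (adjusted p = 1.67e-06). In none of the 20 groups of 6 peritoneal values did a single library lie far from the other 5 by Dixon's criterion.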

How the results depend on the processing

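In peritoneal cells the same 6 genes were called under every alternative run, except among the deep libraries alone, where Ccl2 was lost (5 genes). With the replicate block the 6 were kept (7133 calls of 17935 genes tested, against 7733 of 14985 without it, since the low-count filter follows the design and both changed), heart and lung stayed at 0 called members, and the mouse block left 6 members called between the organs and 0 for the interaction; the block changed no call of the 10 genes. Replicate numbers did not pair the mice, with correlations of −0.17 to 0.13 in peritoneal cells, 0.07 to 0.24 in heart (where each correlated best with its own number) and −0.52 to 0.30 in lung. Numbers of other CC chemokine genes called went from 8 to 7 with the block, and to 5 in the deep and 5 in the shallower libraries alone; leaving out 1 replicate gave 7 to 9. DESeq2 called 5 members in heart where edgeR called 0; the cause was not tested. Leaving out 1 replicate kept 6 members in peritoneal cells, 0 in heart and lung, and 5 to 6 between organs. Estimates near 0 changed sign. For Ccl8 in peritoneal cells they became 0.0182 with DESeq2 size factors, 0.0182 with no filter, 0.0162 with DESeq2, 0.00284 with the newer quasi-likelihood form, 0.0621 with voom, 0.185 with the block, and 0.12, 0.171 and 0.0627 with depth class as a term, the deep and the shallower libraries alone; without 1 replicate they ran from −0.16 to 0.34. For Ccl5 in the same cells they became 0.0221, 0.0196, 0.0221, 0.0382, 0.0367 and 0.281 with DESeq2 size factors, no filter, DESeq2, the block, the depth term and the deep libraries alone, and −0.0435 to 0.0584 without 1 replicate. Ccl6 became −0.0537 in the shallower libraries alone. In lung, Ccl5 became −0.291 with voom and −0.0459 to 0.46 without 1 replicate. Of the other member fold changes, 125 heart, 128 lung and 189 peritoneal values kept their direction and side of the threshold. In heart, 1 to 40 reads per library lie behind Ccl5 and Ccl8, and 3 mice per group limit both organs.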

Other observations

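Chemokine genes other than the 10 were also measured in the organs, and none was called there by edgeR. In heart, 6 of 8 other receptors, 7 of 12 other ligands, 2 of 6 other receptors of the CC class and 24 of 25 signal chain genes could be tested, with median log2 fold changes of −0.90, −0.17, 0.32 and −0.08. Fgr, a myeloid Src-family kinase, and Pik3r5, a regulatory subunit of the kinase of Pik3cg, ranked first in the signal chain by edgeR, with log2 fold changes of −1.58 and −0.58 and an edgeR adjusted p of 0.435 each. Ccl19, a CCR7 ligand of lymphoid tissue, was at 0.873 to 6.66 CPM with vehicle and 0.403 to 0.48 CPM with β-NMN. Its groups did not overlap, as was so with β-NMN lower for 11.5% of all genes tested in heart. In lung, 6 of 8, 9 of 12, 4 of 6 and 25 of 25 genes could be tested, with medians of −0.17, −0.26, 0.02 and 0.12.

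Summed levels of further cell type markers in the peritoneal cells had overlapping ranges, although single markers were called. Resident large peritoneal macrophage markers summed to 114 to 203 CPM with vehicle and 108 to 247 CPM with β-NMN, eosinophil markers to 8.84 to 30.0 CPM with vehicle and 7.82 to 27.7 CPM with β-NMN, B cell markers to 30.6 to 149 CPM with vehicle and 20.6 to 81.6 CPM with β-NMN, mast cell markers to 87.2 to 243 CPM with vehicle and 62.8 to 107 CPM with β-NMN and endothelial markers to 49.2 to 76.7 CPM with vehicle and 73.3 to 152 CPM with β-NMN. Kit was the 1 mast cell marker of 4 that fell (log2 −2.80), and 2 of 4 B cell markers fell. Of the 5 resident macrophage markers Timd4 rose (1.73) while Gata6 (−1.43) and Icam2 (−0.58) fell, and of the endothelial markers 1 rose and 2 fell. Exact two-sided permutation tests of the log2 sums gave p = 0.00866 for mast cells, 0.00433 for endothelium, 0.0628 for resident macrophages, 0.201 for B cells and 0.814 for eosinophils, unadjusted over the 15 marker lists. Summed markers of cardiomyocytes reached at most 3.32 CPM, of lung epithelium 2.51 CPM and of mesothelium 6.15 CPM in any peritoneal library.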
